A study of Rattus norvegicus with 16 samples.

Results

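The rat heart transcripts described here are those that the authors' files list for the Wistar Kyoto rat (WKY) and the spontaneously hypertensive rat (SHR), and do not list for SHR given neferine, an alkaloid of lotus seed. They were selected by row identifier alone and number 1882 of the 34480 identifiers in the series. The WKY and SHR files hold 32924 rows, 31042 of which the neferine files also list. SHR is an inbred strain that develops high blood pressure and an enlarged heart, and WKY is the strain commonly used as its normotensive control. Heart total RNA, depleted of ribosomal RNA, was sequenced from 5 WKY and 5 SHR, both given double distilled water by stomach tube for 10 weeks. A further 6 SHR received neferine by the same route at 10 mg/kg per day for 10 weeks, and the labels also list the water among their treatments. Age, sex and chamber of the heart are not used here, and the rows described have no neferine value. Rats are numbered within a group, and each was treated as an animal of its own.

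Of the 1882 rows, 384 carry Ensembl rat transcript identifiers (ENSRNOT), so they belong to an existing annotation. The other 1498 are assembled transcripts, written MERGE with a locus number and then a transcript number. Assembled transcripts made up 79.6% of these rows and 59.6% of the rows in both sets of files. A gene can give several transcripts through different start sites, splicing or polyadenylation. Rows that share a locus number are read here as such alternatives, which could not be checked without coordinates or sequences. Where transcripts overlap, software that estimates abundance has to divide shared reads among them. A row can therefore be listed at 0 while its locus is still transcribed, and the other rows of a locus have to be read beside it. The reference gene table paired 0 of the 1882 identifiers with a gene symbol, so gene functions, heart cell markers and sequences are not given. In whole tissue, fewer cells of a type and less RNA per cell cannot be told apart.

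The deposited values show the trace of a filter, and it fixes much of what the rows can show. Every row of the WKY and SHR files had a mean of at least 0.5 in WKY or in SHR, in the authors' normalised abundance, a linear scale whose unit no source used here names. Of the 1882 rows, 1788 had a SHR mean under 0.5, and each of these had a WKY mean of at least 0.5. Lower values in SHR are thus largely a property of how the rows came to be listed, and their differences are given as a description that supports nothing by itself. The highest SHR mean on the lower side of 0.5 was 0.4997, and the lowest on the upper side was 0.502. The other 94 rows had a SHR mean of at least 0.5, 28 of them with a WKY mean of at least 0.5 too, and such a filter on group means does not account for their absence from the neferine files. Of these 94, 47 were above 0 in 1 SHR library, 40 in 2 and 7 in 3.

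Some features of the libraries touch the results. SHR 1 is called WKY in 1 of its label fields, the description, and SHR in its title, strain and group. The deviations of WKY 1 and WKY 3 from their group mean were correlated across all rows with those of SHR 3 and SHR 4, at 0.0506 to 0.108. Values of this size were not confined to these libraries: WKY 6 and SHR 1 reached 0.0849, WKY 6 and SHR 6 0.0688, and WKY 5 and SHR 2 0.0523. The value for WKY 6 and SHR 3 was -0.113. Counts without SHR 1, and without WKY 1, WKY 3, SHR 3 and SHR 4, stand beside the results. Summed over all rows, a WKY library held between 556993 and 663148 and a SHR library between 587365 and 683638, and read depth is unknown.

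Most of the rows were neither steady in WKY nor abundant. The median over rows of the WKY mean was 0.73, against 1.78 for rows in both sets of files, and 67 rows had a WKY mean of at least 5. A row was called steady when its value was at least 0.5 in all 5 WKY libraries, intermediate when this held in 3 or 4 of them, and sporadic when it held in at most 2. By this measure 234 of the 1882 rows were steady (12.4%), 777 were intermediate (41.3%) and 871 were sporadic (46.3%). Over all 32924 rows, 54.6% were steady. By kind of identifier, 14.1% of ENSRNOT rows and 12% of MERGE rows were steady, and 40.1% and 47.9% were sporadic. The difference between the kinds was not tested. In rows shared with the neferine files, by contrast, 72.6% of ENSRNOT and 46.7% of MERGE rows were at 0.5 or more in every WKY library.

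**Figure D1:**
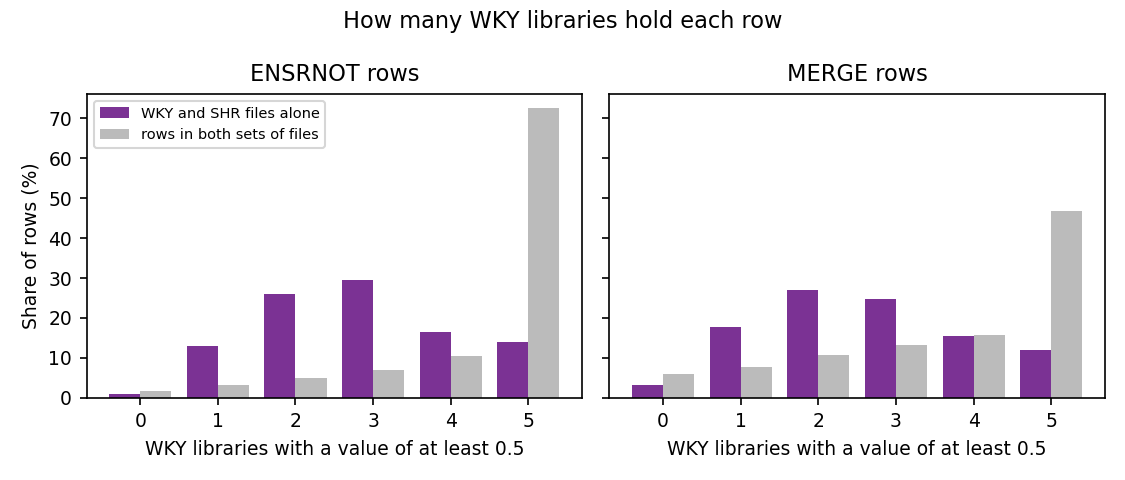
Share of rows (%) by the number of WKY libraries, from 0 to 5, with a value of at least 0.5, for ENSRNOT rows (left) and MERGE rows (right). Purple bars are the 1882 rows not in the neferine files and grey bars are rows in both sets of files: most purple rows reach the value in 1 to 4 libraries, and only 14.1% and 12% of them in all 5.

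Each WKY heart held between 932 and 1106 of the rows at 0.5 or more, and each SHR heart between 259 and 377, without overlap. The way rows were listed largely fixes this separation, so it is a description. For rows in both sets of files the ranges overlapped, at 23998 to 25120 in WKY and 24173 to 25858 in SHR. SHR 1 held the most of the 1882 rows among SHR libraries, 377. It also held the most shared rows at that level, 25858 against 24173 to 25642 in the other SHR libraries. WKY 1 and WKY 3 held 957 and 932, the fewest in WKY, and likewise the fewest shared rows, 24280 and 23998. The summed abundance of the rows was 2651 in WKY 1, 2386 in WKY 3, 3479 in WKY 4, 2703 in WKY 5 and 9441 in WKY 6. WKY 6 stood apart through a single row, MERGE.21425.5, without which its sum was 3278. In SHR the sums were 659, 495, 807, 570 and 994 in SHR 1, 2, 3, 4 and 6. These rows thus held between 0.36% and 1.7% of the abundance of a WKY library and between 0.0794% and 0.166% of that of a SHR library.

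**Figure D2:**
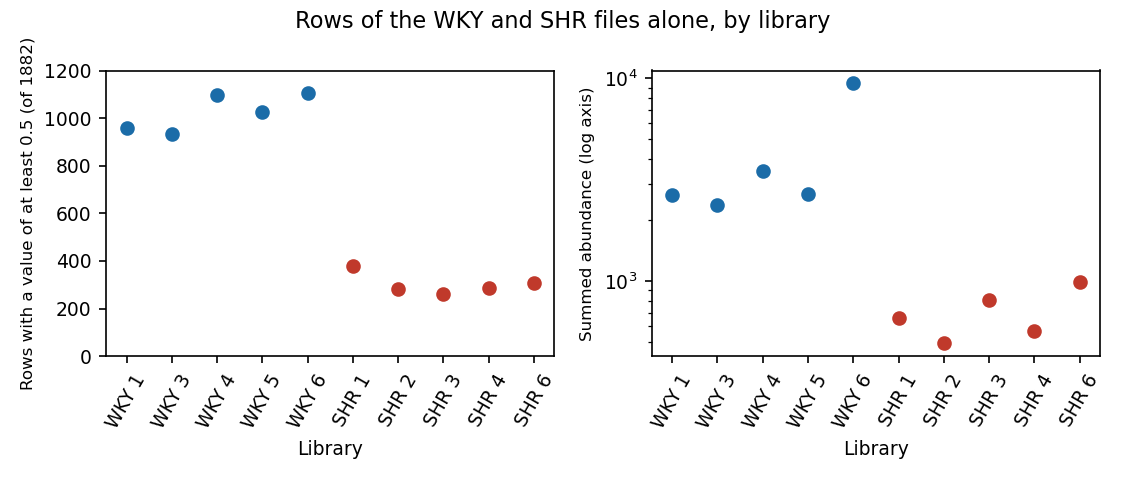
Number of the 1882 rows with a value of at least 0.5 (left) and their summed abundance on a log axis (right), 1 point per library, blue for WKY and red for SHR. WKY points lie between 932 and 1106 rows and SHR points between 259 and 377, and the sum of 9441 in WKY 6 lies above the other WKY sums of 2386 to 3479. The way rows were listed largely fixes the gap between the strains.

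A small set of steady rows was listed at 0 throughout SHR. Of the 234 steady rows, 38 had a value of 0 in each of the 5 SHR libraries, and are called SHR-zero rows here; 4 were ENSRNOT and 34 were MERGE. A further 92 steady rows stayed under 0.5 in every SHR library, 101 reached 0.5 in 1 or 2 SHR libraries and 3 in 3 or more. In all 32924 rows the pattern of the SHR-zero rows occurred 41 times (0.125%), so 3 such rows were also listed in the neferine files. The WKY mean of the 38 ranged from 0.828 to 120 with a median of 2.8, and 24 had a value of at least 1 in every WKY library. Their coefficient of variation among the 5 WKY hearts had a median of 30.5% and was at most 50% in 30 of the 38. With SHR 1 left out the count was 42, so SHR 1 alone held a value in 4 further rows, and with WKY 1, WKY 3, SHR 3 and SHR 4 left out it was 73, where 3 libraries a group have to meet the rule.

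**Figure D3:**
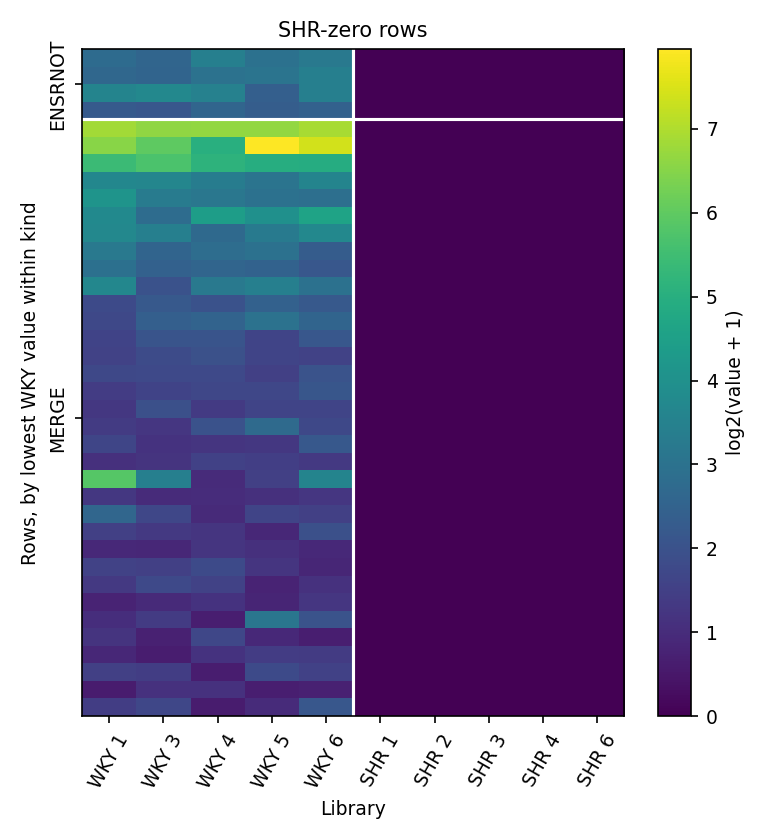
Abundance of the 38 SHR-zero rows as log2(value + 1), 1 line per row and 1 column per library, with ENSRNOT rows above MERGE rows and each kind ordered by its lowest WKY value. All 5 SHR columns are at 0, which is how the rows were chosen, and a few MERGE rows at the top of their block carry most of the WKY abundance.

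The 4 annotated SHR-zero transcripts were ENSRNOT00000088437, ENSRNOT00000061332, ENSRNOT00000044520 and ENSRNOT00000079520, of which the first 2 had the highest lowest WKY value. ENSRNOT00000088437 had values of 5.79, 5.005, 9.72, 6.8 and 8.24 in WKY 1, 3, 4, 5 and 6, and was listed at 0 in every SHR library. ENSRNOT00000061332 had values of 5.32, 4.91, 6.95, 7.34 and 9.8 in the same order, and was listed at 0 in every SHR library. Both were present in each WKY heart at similar values, and the identifiers do not tie them to an assembled locus.

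Among assembled transcripts the corresponding rows both came from locus MERGE.14292. MERGE.14292.63 had values of 114, 98, 101, 100.3 and 119 in WKY 1, 3, 4, 5 and 6 and was listed at 0 in every SHR library. Its WKY mean was 107 ± 9.46 (SD, n = 5), so it varied little among WKY hearts. MERGE.14292.87 was similarly abundant but less even, with 92.1, 61.4, 31.2, 246 and 168 in the same libraries. Its WKY mean was 120 ± 87.1 (SD, n = 5), and it too was listed at 0 in every SHR library. MERGE.541.1, chosen after its values were seen, was the most abundant SHR-zero row that is the only listed row of its locus. It had values of 41.4, 50.8, 34, 29.7 and 29.1 in WKY and 0 throughout SHR.

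Some steady rows were silent in all SHR hearts but 1. There were 26 steady rows above 0 in exactly 1 SHR library, at no more than 1.41. This library was SHR 2 for 11 of them, SHR 3 for 7, SHR 1 for 4, SHR 4 for 3 and SHR 6 for 1. At the other end, 85 steady rows were above 0 in all 5 SHR libraries, and most of the 234 steady rows had a value in at least 1 SHR heart. A steady row reached 0.5 in exactly 1 SHR library in 67 cases, and here SHR 6 held the most, 19, and SHR 4 the fewest, 7.

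For reference, limma was fitted to all 32924 rows of the 10 libraries on log2(value + 1). It called 359 rows lower in SHR (1.09%) and 426 higher (1.29%) at a Benjamini-Hochberg adjusted p under 0.05. Of the 1882 rows, limma called 166 lower and 0 higher, with 502 lower and 3 higher at an unadjusted p under 0.05. The median log2 fold change of the 1882 rows was -0.42, against -0.004 over all rows. Since the listing of the rows used the same means, nothing is read from these counts. The calls comprised 30 of 384 ENSRNOT rows and 136 of 1498 MERGE rows, and they were made up of 145 steady and 21 intermediate rows. They included 36 of the 38 SHR-zero rows. The lowest WKY value lay above the highest SHR value in 268 of the 1882 rows, against 2.38% of all rows. The count called was 140 without SHR 1 and 108 without WKY 1, WKY 3, SHR 3 and SHR 4.

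The abundance of sporadic rows was uneven among WKY hearts, which the definition of sporadic in large part fixes, so the shares below are a description. Among the 805 sporadic rows with a WKY mean of at least 0.5, the highest WKY library held a median of 64.7% of the WKY sum, and in 284 of them (35.3%) it held over 80%. Over all 29457 rows with such a WKY mean, the median was 29.2%, and 3.62% exceeded 80%. The highest library was WKY 6 for 210, WKY 4 for 188, WKY 1 for 148, WKY 5 for 145 and WKY 3 for 138 of the 829 sporadic rows above 0 in WKY. No WKY heart therefore accounted for most of them. A total of 41 of the 1882 rows were above 0 in only 1 of the 10 libraries.

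The most abundant sporadic rows were each a matter of 1 heart. MERGE.19248.15 reached 631 in WKY 4, and its other 9 values were 0. Other rows of its locus had a mean sum of 872 in WKY and 1117 in SHR. MERGE.21425.5 reached 6163 in WKY 6, and its other 9 values were 0. The locus of the latter, MERGE.21425, was expressed in all libraries, since its 8 other rows summed to 3236, 3202, 4566, 4042 and 26330 in WKY 1, 3, 4, 5 and 6 and to 28155, 9879, 3314, 3131 and 15823 in SHR 1, 2, 3, 4 and 6. The sums of WKY 6, SHR 1 and SHR 6 stood far above most others, and the groups overlapped.

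The rows with the highest SHR means were of the same irregular kind. MERGE.7466.64 reached 449.7 in SHR 6, with at most 0.00673 in WKY 1 and SHR 1 and 0 elsewhere. MERGE.14116.7 reached 258 in SHR 3, and its other 9 values were 0. Other rows of locus MERGE.7466 had a mean sum of 1138.5 in WKY and 1117.1 in SHR. For MERGE.14116 these mean sums were 207.3 and 207.7. Among annotated transcripts, ENSRNOT00000050342 had values of 10.5 in WKY 4, 13.5 in SHR 2 and 8.05 in SHR 3, and ENSRNOT00000071806 had values of 11.7 in WKY 1, 8.36 in WKY 5, 5.28 in SHR 1 and 15.6 in SHR 4. Both were listed at 0 in all other libraries, so each was present in some hearts of either strain. Limma gave an adjusted p of 0.852 for ENSRNOT00000050342 and of 0.995 for ENSRNOT00000071806.

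Whether the rest of a locus remained expressed in SHR was asked for the 1498 MERGE rows, which came from 1224 loci. A single such row was found in 1053 loci and 2 or more in 171. In 735 loci (60%), holding 986 of the rows, the WKY and SHR files listed other rows of the locus, and all of these other rows were also in the neferine files. The other 489 loci, with 512 rows, had no other row in these files. ENSRNOT rows carry no locus number and enter no locus here, and MERGE rows that were not listed are missing. A locus sum or total therefore covers only the listed MERGE rows of the WKY and SHR files. The other rows of a locus summed to at least 0.5 in all 5 SHR libraries in 563 of the 735 loci (76.6%), against 69.9% of all 10355 loci with rows in both sets of files. In the remaining 172 loci they reached 0.5 in some SHR libraries or in none of them. Every row in both sets of files had a SHR or a neferine mean of at least 0.5. The listing therefore fixes in large part that the other rows are expressed in SHR, and these counts are a description. By a SHR mean of at least 0.5, in place of all 5 libraries, 721 of the 735 loci met the rule. With SHR 1 left out the 563 became 575, and with SHR 3 and SHR 4 left out 614.

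At the loci with other rows, the missing rows were mostly a minor part of the listed MERGE abundance. The 489 loci without other rows are not in these shares. Among the 723 of the 735 loci with a mean locus sum of at least 1 over the 10 libraries, the rows not in the neferine files made up a median of 22.5% of the WKY locus mean and 5.68% of the SHR locus mean. They held more than 50% of the WKY mean at 111 loci and of the SHR mean at 8. The way rows were listed largely fixes the low shares in SHR, so they are a description.

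The sums of the other rows were then compared between the strains, with limma over the 10355 loci that have rows in both sets of files. These sums are not fully independent of the choice of rows. Every row in both sets of files had a SHR or a neferine mean of at least 0.5, whereas most rows described here had a SHR mean under 0.5, so the rows of a locus were divided partly by their SHR level. The sums differed in 33 of the 735 loci (4.49%), while over all 10355 loci 4.08% differed. By direction, 14 of the 735 were lower in SHR (1.9%, against 1.05% of all loci) and 19 were higher (2.59%, against 3.03%). Whether these shares differ from those of all loci was not tested. The 14 falls ranged from -3.14 to -0.63 on the log2(sum + 1) scale and the 19 rises from 0.54 to 5.62. The median log2 fold change over the 735 loci was 0.1, against 0.02 over all loci, with a median standard error of 0.27. For 57.3% of the 735 loci the 95% confidence interval lay within 1 on the log2 scale in either direction. The count of 33 became 20 without WKY 1, 30 without SHR 1, and 20 (2 lower, 18 higher) without WKY 1, WKY 3, SHR 3 and SHR 4.

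**Figure D4:**
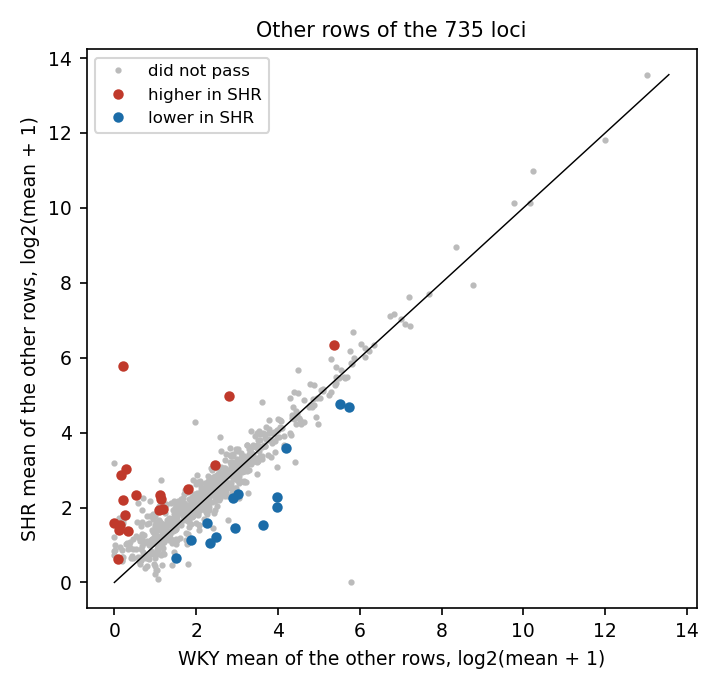
Mean abundance of the other rows of each of the 735 loci in SHR against WKY, as log2(mean + 1), with the line of equal values. Red points (19 loci, higher in SHR) and blue points (14 loci, lower in SHR) passed limma at an adjusted p under 0.05; most loci lie near the line.

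Adding the missing rows back shows where the locus total differed as well. Of the 19 loci whose other rows were higher in SHR, 4 were called higher on the sum of all their rows and the other 15 were not called. Of the 14 whose other rows were lower, 11 were also called lower on the sum of all rows. Among all 735 loci, the sum of all rows was called lower in SHR at 27 (3.67%, against 2.09% of 10844 loci) and higher at 4 (against 2.88%). Because those rows are low in SHR by the way they were listed, these sums are not independent of the choice of rows.

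The 30 loci of the 34 assembled SHR-zero rows divided into loci with and without other rows. In 17 loci, with 17 of the 34 rows, the WKY and SHR files listed no other row outside the rows described here. At 16 of these every MERGE row listed for the locus stood at 0 in every SHR library. The exception was MERGE.8901, named after its values were seen, whose rows summed to at most 0.0638 in a SHR library. MERGE.541 was the most abundant of the 17, at 37 ± 9.13 in WKY (SD, n = 5). In the other 13 loci, again with 17 rows, other transcripts of the locus were listed. They reached 0.5 in all 5 SHR libraries at 11 of these loci, so at these the locus was still expressed in SHR without the SHR-zero row. The exceptions, named after their values were seen, were MERGE.10914 and MERGE.18641. Since the other rows were listed with a SHR or a neferine mean of at least 0.5, the count of 11 is a description too.

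MERGE.14292 and MERGE.12076 had the most rows among those described here and, among loci of SHR-zero rows, the highest SHR sums of other rows. MERGE.14292 held 19 of them, of which 7 were steady, 11 intermediate and 1 sporadic. Summed over the 19 rows, its values were 301, 353, 318, 432 and 529 in WKY 1, 3, 4, 5 and 6, and at most 1.72 in a SHR library. Together they held 47.1% of the WKY mean of the locus. The 44 other rows summed to 530, 292, 469, 479 and 396 in the same WKY libraries, and to 316, 238, 130, 258 and 278 in SHR 1, 2, 3, 4 and 6. Only SHR 1 overlapped the WKY range. The log2 fold change of the other rows was -0.86 (SE 0.24), which did not pass (limma adjusted p 0.099). The locus total, which includes the rows low in SHR by the way they were listed, stood at 820 ± 113 in WKY and 245 ± 70.3 in SHR (SD, n = 5 each). In neferine-treated SHR the same 44 rows summed to 291 ± 26.2 (SD, n = 6).

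At MERGE.12076 the 13 rows summed to 61.1, 112, 66.9, 63.6 and 48.5 in WKY 1, 3, 4, 5 and 6 and to at most 1.77 in SHR, and made up 55.6% of the WKY mean of the locus. Its 39 other rows gave 91.9, 25.7, 42.8, 30.3 and 91.4 in WKY against 80, 90.7, 89.3, 126 and 122 in SHR (80.05 before rounding in SHR 1). WKY 3, 4 and 5 lay below all SHR hearts, while WKY 1 and WKY 6 lay within their range. The log2 fold change was 1.01 (SE 0.36) and did not pass (limma adjusted p 0.209). The locus total stood at 127 ± 24.3 in WKY and 103 ± 21.3 in SHR (SD, n = 5 each).

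At some loci different rows were present in the 2 strains. The way rows were listed favours such a split, since most rows described here had a SHR mean under 0.5. The other rows had a SHR or a neferine mean of at least 0.5. These loci were also picked for the largest rises of other rows or after their values were seen, so they are a description. MERGE.19879 has 2 rows. MERGE.19879.2 had values of 11.9, 11.6, 9.08, 7.39 and 10.9 in WKY 1, 3, 4, 5 and 6 and was listed at 0 in all SHR libraries. MERGE.19879.1 was listed at 0 in 4 WKY libraries and at 0.775 in WKY 3, and had values of 55.4, 43.2, 61.9, 57.2 and 54 in SHR 1, 2, 3, 4 and 6. The strains did not overlap for either row, and the rise of the other row was the largest at the 735 loci (log2 fold change 5.62, SE 0.18, limma adjusted p 7.62e-09). The locus total was 10.3 ± 2.05 in WKY and 54.4 ± 6.87 in SHR (SD, n = 5 each). In the 6 neferine libraries MERGE.19879.1 lay between 46.8 and 149.

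The next largest rise was that of MERGE.11397, whose 5 other rows summed to at most 0.548 in WKY and to 10.4, 8.09, 4.83, 5.1 and 7.29 in SHR 1, 2, 3, 4 and 6. Its log2 fold change was 2.72 (SE 0.21, limma adjusted p 1.11e-05). Its 3 rows among those described here were intermediate, with sums of 6.45, 0.895, 6.27, 6.18 and 0.436 in WKY 1, 3, 4, 5 and 6 and at most 0.132 in SHR. WKY 3 and WKY 6 thus held little of either kind of row. The locus total was 4.25 ± 3.21 in WKY and 7.16 ± 2.3 in SHR (SD, n = 5 each). MERGE.5042, chosen after its values were seen, showed a similar pattern at a lower level. Its 3 rows among those described here summed to 3.62 ± 1.04 in WKY and 0.0555 ± 0.116 in SHR (SD, n = 5 each), and its other row had a value of 0.441 ± 0.468 in WKY and 4.01 ± 1.47 in SHR. The rise of the other row passed (log2 fold change 1.81, SE 0.25, limma adjusted p 0.00125), except without WKY 1, WKY 3, SHR 3 and SHR 4 (adjusted p 0.0513). The locus total was 4.06 ± 1.31 in WKY and 4.06 ± 1.41 in SHR.

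**Figure D5:**
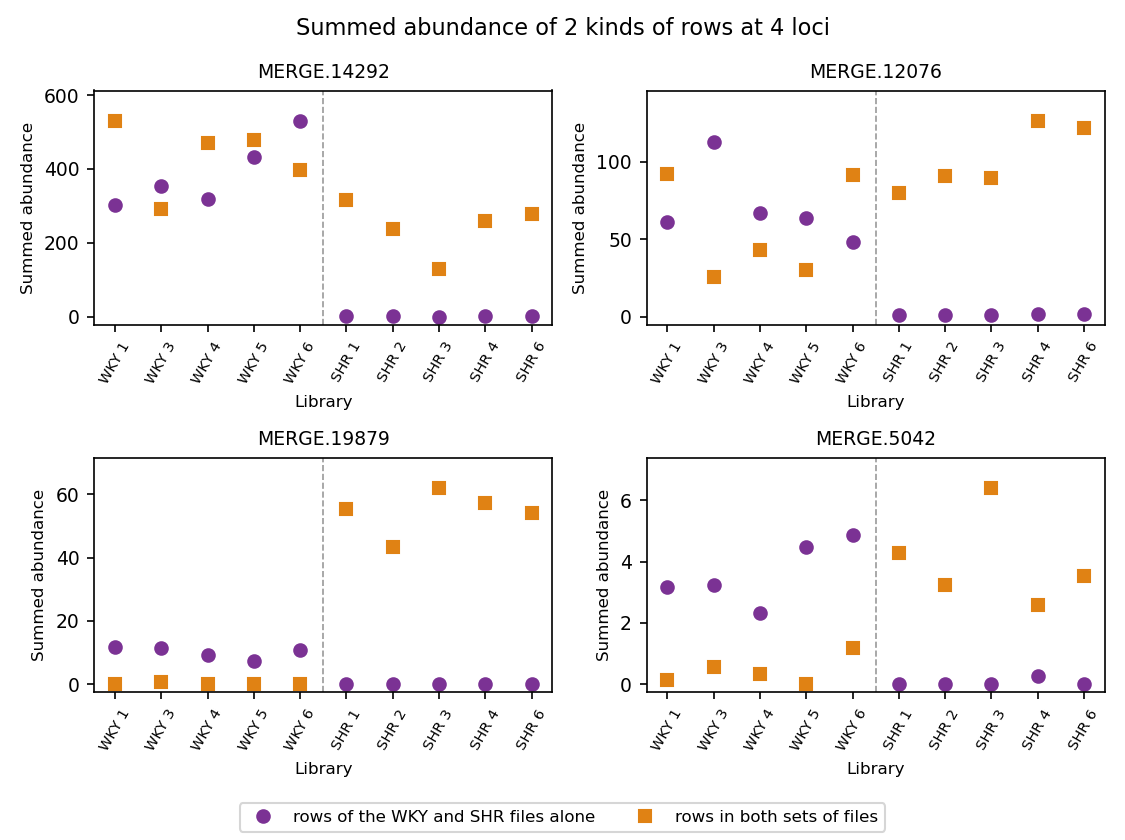
Summed abundance per library at 4 loci, for rows not in the neferine files (purple circles) and rows in both sets of files (orange squares), with a dashed line between WKY and SHR libraries. The circles are near 0 in all SHR libraries at each locus, while the squares are lower than in most WKY libraries at MERGE.14292 and higher than in all WKY libraries at MERGE.19879 and MERGE.5042.

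At other loci both kinds of row were low in most SHR hearts. The largest falls of other rows were at MERGE.10914 and MERGE.12112. At MERGE.10914 the 3 rows described here summed to 12.7, 15.3, 24, 18.9 and 31.8 in WKY 1, 3, 4, 5 and 6 and to 0 in SHR. Of its 2 other rows, MERGE.10914.2 ranged from 8.88 to 18.2 in WKY and stood at 0 throughout SHR, and MERGE.10914.3 stood at 0 throughout WKY and at 15.4 in SHR 2 alone. The log2 fold change of their sum was -3.14 (SE 0.72, limma adjusted p 0.0377). Without SHR 2 the adjusted p was 8.92e-07, and without any other single library the call was lost (adjusted p 0.0608 to 0.0957), as it was without WKY 1, WKY 3, SHR 3 and SHR 4 (adjusted p 0.396). The locus total was 35.3 ± 9.21 in WKY and 3.08 ± 6.88 in SHR (SD, n = 5 each). In the neferine libraries 1, 2 and 4 the 2 rows summed to 10.7, 16.7 and 6.57, and they were listed at 0 in the other 3, so treated SHR hearts were also divided.

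At MERGE.12112 the row described here had values of 3.85, 5.41, 3.95, 4.24 and 4.45 in WKY and at most 0.554 in SHR. Its only other row, MERGE.12112.2, had values of 16.1, 9.49, 9.21, 10.8 and 11.7 in WKY 1, 3, 4, 5 and 6 and of 2.08, 2.51, 1.76, 1.31 and 1.75 in SHR 1, 2, 3, 4 and 6, without overlap. Its log2 fold change was -2.1 (SE 0.17, limma adjusted p 1.65e-05), so both rows of this locus were low in SHR, with a total of 15.9 ± 2.56 in WKY and 2.17 ± 0.575 in SHR (SD, n = 5 each). In neferine-treated SHR, MERGE.12112.2 had a value of 1.41 ± 0.462 (SD, n = 6). MERGE.12181, chosen after its values were seen, lay between these cases. Its SHR-zero row MERGE.12181.1 had values of 3.47 to 6.69 in WKY, and its other row stood at 2.36 ± 0.61 in WKY and 1.21 ± 0.242 in SHR (SD, n = 5 each). That difference did not pass (log2 fold change -0.59, SE 0.15, limma adjusted p 0.0641), although it did without WKY 5 (adjusted p 0.0285). The locus total, which includes the SHR-zero row, was 7.78 ± 1.64 in WKY and 1.63 ± 0.481 in SHR (SD, n = 5 each).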

How the data were processed

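The files give 1 abundance signal per transcript and library, on a linear scale, which the authors had normalised before they deposited it in a way not given in the sources used here. Aligner, quantification tool, genome build and annotation are not given in the sources used here either, and limma is the 1 tool in the submitters' processing notes. No deposited row of the WKY and SHR files has both group means under 0.5, and no source used here gives the rule behind this. Read depth is unknown, so how far it limits rows near 0.5 cannot be said, and each strain has 5 animals.

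The members and lists were chosen with earlier results of these data known. Groups and replicate numbers came from sample titles. limma 3.58.1, run in R 4.3.3 with its trend option, was fitted to log2(value + 1) of 5 WKY and 5 SHR libraries over all 32924 rows with no further filter, and to locus sums of rows in both sets of files. Calls required a Benjamini-Hochberg adjusted p under 0.05. A planned filter (at least 1 in 5 libraries) served only as an alternative, since it lets these rows through mainly by their 5 WKY libraries. It kept 105 of the 1882 rows. A locus is the MERGE identifier without its last number, and ENSRNOT rows were not assigned to loci. The fits were checked on simulated data with a normal spread, in which only rows more abundant than most of those described here were changed. That check therefore says little about low or sporadic rows. The limma p-values set each strain difference against the spread between these animals, moderated over all rows or loci.

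Named rows were the 2 ENSRNOT and 2 MERGE rows with the highest lowest WKY value among SHR-zero rows, those with the highest SHR means and the 2 highest sporadic rows. Named loci were the 2 with the highest SHR sums of other rows among loci of SHR-zero rows, the 2 with the most rows, and those with the 2 largest falls and the 2 largest rises of other rows. Exceptions are marked in the text. No sequence of these transcripts was used here.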

Additional observations from a re-analysis of the deposited data

Results flagged for a closer look

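Groups of 5 library values were examined for a library far from the rest, for each named row, the other rows of each named locus and the summed members. Of 34 groups, 10 held one. The rate of about 1 in 20 groups that chance gives is no fair comparison here, since several rows were named for a single high value (MERGE.21425.5, MERGE.19248.15) or a high SHR mean (MERGE.7466.64, MERGE.14116.7). In 7 cases these are rows or loci listed at 0 in the remaining libraries of their group. These are MERGE.21425.5 at 6163 in WKY 6, MERGE.19248.15 at 631 in WKY 4, MERGE.14116.7 at 258 in SHR 3, ENSRNOT00000050342 at 10.5 in WKY 4, MERGE.7466.64 at 0.00673 in WKY 1, the other row of MERGE.19879 at 0.775 in WKY 3, and the other rows of MERGE.10914 at 15.4 in SHR 2. MERGE.7466.64 stood at 449.7 in SHR 6, where the next SHR value was 0.00118. The other rows of MERGE.21425 summed to 26330 in WKY 6, against at most 4566 in the other WKY libraries. The summed abundance of all 1882 rows was 9441 in WKY 6, and 3278 without MERGE.21425.5.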

How the results depend on the processing

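The count of 166 rows called between SHR and WKY was 108 without WKY 1, WKY 3, SHR 3 and SHR 4. With a value of at least 1 in 5 libraries required, 105 of the rows were left to be tested and 91 were called. That filter lets these rows through mainly by their 5 WKY libraries, so nothing is read from the 91. A pseudocount of 0.1, median-of-ratios scaling and the omission of each library gave 192, 170 and 140 to 175, of which 1 row was higher without WKY 6. With the animal number as a replicate block, over the 8 libraries whose numbers occur in both strains, it was 53, and 135 in the same 8 libraries without the block. The 4 numbers share no origin in the labels, so they were not used to pair the animals. Their correlations were -0.0609, 0.108, -0.0136 and 0.0688, and 0.108 was the highest of any pair. Correlations this small cannot decide whether the numbers pair the animals. Not every library correlated best with its own number. The 33 loci whose other rows differed became 13 with the block, 21 in the same 8 libraries without it, 20 without the 4 libraries named above and 20 to 31 without each library in turn. Summing all rows of those loci in place of the other rows gave 31 calls, 27 lower and 4 higher, against 14 and 19. The 38 SHR-zero rows became 24 with a WKY threshold of 1, 130 with every SHR library under 0.5, and 73 without the 4 libraries. Leaving out a library can only raise that count, by construction, and gave 39 to 49. All 8 alternatives for the 563 loci still expressed in SHR stayed within 1.5 times. No log2 fold change of a named locus changed sign under any alternative run. Alternatives with the 4 libraries omitted, or 8 libraries without the block, were chosen after seeing the data.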

Other observations

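The neferine files hold 1071 assembled rows that the WKY and SHR files do not list, and 252 of these belong to 180 of the 1224 loci described here. At 17 of the 489 loci without another row in the WKY and SHR files, the neferine files alone list a row of the locus. These rows have no WKY or SHR value, so the strains cannot be compared on them.

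The locus of the most abundant sporadic row, MERGE.21425, was high in some hearts of both strains. In these hearts ENSRNOT00000050156, the most abundant row of most libraries, was lower than in the others, though still the highest row of SHR 6. Over all its 9 rows the locus summed to 32493 in WKY 6, 28155 in SHR 1 and 15823 in SHR 6, where ENSRNOT00000050156 had values of 28476, 31755 and 41172. In the other 7 libraries the locus summed to between 3131 and 9879, and ENSRNOT00000050156 had values between 74876 and 82236. These items were chosen after their values were seen, and the relation was not tested.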
